A study of Mus musculus with 12 samples.

Results

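Cholestasis begins when bile can no longer leave the liver, and in the mouse it is modelled by bile duct ligation (BDL), in which the common bile duct is tied off. The comparison described here is the early response, BDL day 3 against day 0, in GFP(+) liver cells. The animals were adults with the genotype *Prom1*CreERT2-nLacZ/+;*Rosa26*Lsl-GFP/+, from a cross of a C57BL/6N line that carries the *Prom1* allele with a C57BL/6J reporter line, and the labels give the strain as C57BL/6. In these animals tamoxifen makes cells that express *Prom1* at that moment, and the cells descending from them, carry GFP for good. All groups received tamoxifen 7 days before the procedure. Day 0 is labelled as sham and is described by the study as the state before BDL. The 3 day 0 libraries came from 1 male and 2 females, and the 3 BDL day 3 libraries from 2 males and 1 female. The other group, BDL day 14, enters with 4 libraries. It is used to say what later became of a value, and it also enters the filter on the mean over all libraries, the standard errors and the limits set by the highest library. Non-parenchymal cells were sorted on GFP alone, after exclusion of dead cells and lysis of red blood cells.

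Of 16971 genes listed, 12891 had a mean of at least 1 normalized count over all 10 libraries and were compared. Their functions were described with 62 lists of genes that work together, which hold 952 genes, of which 928 were compared. The values are upper quartile normalized counts, that is, read counts per gene scaled so that the upper quartile of genes is alike in every library. They are not divided by gene length, so they compare groups for 1 gene and not genes with each other. The table gives 1 mean per group and no value for a single library, and the read depth of each library is unknown. No test between the groups was therefore run on these values, and "higher" and "lower" below describe group means.

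Experimental error was judged in 3 ways. First, the standard error (SE) of a log2 ratio was estimated from the gap between the group means and the geometric mean over all libraries, which widens as libraries of 1 group spread. It assumes that the spread is the same in all 3 groups and close to log-normal, and it rests on 7 residual libraries. The study, however, described BDL day 14 replicates as more variable than those of day 0, and their spread enters each SE. The median SE was 0.47 over all genes compared and 0.357 over those with a mean of at least 10. Rounding of the table can account for an SE of up to 0.197. Any SE below that size, as printed for several genes here, may hold little more than rounding. Second, the table names the highest value of a gene over all libraries but not the group it came from. Placing it in the group with the higher mean and leaving it out gives the smallest ratio that the other libraries allow, and a gene that stays at 2-fold or more is called assured here. Where the highest value came from BDL day 14, the same rule can set this limit at no change whatever the BDL day 3 libraries were. List medians given without each gene's highest library are medians of these worst-case limits. Last, the same count limits how low the libraries of the higher group and how high those of the lower group can be, so for some genes the libraries of the groups cannot overlap. This held for 19 genes upward (0.147%) and 241 downward (1.87%), and among those with a mean of at least 10 for 11 (0.151%) and 62 (0.85%). With every value at the worst edge of its rounding, the counts were 19 and 234, and 11 and 59.

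At BDL day 3, 969 genes (7.52% of those compared) were at least 2-fold higher than at day 0 and 2682 (20.8%) at least 2-fold lower. Of these, 704 (5.46%) and 1699 (13.2%) also lay more than 2 SE from no change, and 428 (3.32%) and 1655 (12.8%) were assured. The excess of lower genes lay among weakly expressed ones. With a mean from 1 to 10, 395 genes (7.06%) were higher and 2040 (36.4%) lower, whereas with a mean of at least 10 the counts were 574 (7.87%) and 642 (8.8%). Under quantile normalization of the group means the split was 1589 higher and 1856 lower, where log2 ratios moved up by a median of 0.176. As deposited, the median log2 ratio over all genes compared was -0.02. Changes were also deeper downward, with 113 genes at least 4-fold higher and 1322 at least 4-fold lower.

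**Figure D1:**
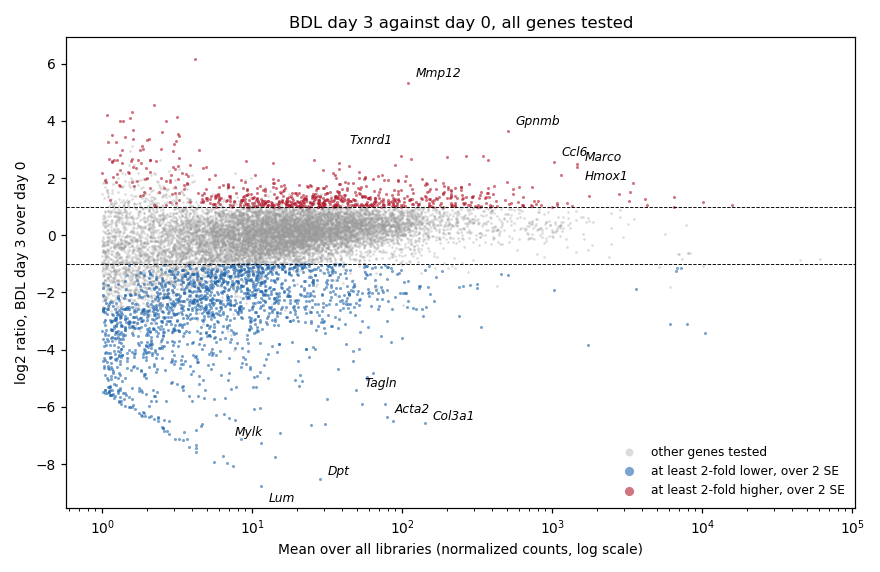
Each point is 1 of the 12891 genes, with its mean over all libraries in normalized counts (log axis) against the log2 ratio of BDL day 3 over day 0, and dashed lines mark 2-fold. Red points (704) and blue points (1699) are at least 2-fold higher or lower and over 2 SE, and the blue ones reach much further from 0 than the red ones.

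The sort was set against defining markers of the cell types it could hold. Of all genes compared, 7.52% were at least 2-fold higher and 20.8% lower. The sum of 5 Kupffer cell markers, which are genes of the macrophages resident in liver sinusoids, was 9212 normalized counts at day 0 and 20870 at BDL day 3, and 4 of 5 were at least 2-fold higher (2 assured). General macrophage markers went from a sum of 2415 to 4129 (2 of 5 higher, none assured). Monocyte markers went from 80.2 to 163.9, with 2 of 5 higher and 1 lower, none of them assured. Markers of cholangiocytes, the bile duct cells in which *Prom1* is known to be active, went from a sum of 510.1 to 200. Of these, 3 of 5 were lower (2 over 2 SE and 2 assured), and *Spp1* was not assured. Of that sum *Spp1*, which other cells also make, held 459 and 175, while *Krt19* had means of 21.5 and 12.7 and *Epcam* of 12.9 and 4.97. *Prom1* itself, looked up after other values were seen, had means of 6.66 and 0.956. All 5 mesenchymal markers were lower, from a sum of 843.7 to 12.93, although none was at the floor of the table, taken here as a group mean of up to 4 times the lowest mean of its group (0.512 at day 0 and 0.292 at BDL day 3). Hepatocyte markers went from a sum of 3125 to 896.9 (4 of 5 lower, all 4 over 2 SE). Erythroid ones went from 47420 to 4829 (3 of 3, all over 2 SE) and B cell ones from 180.2 to 49.12 (4 of 4, 3 over 2 SE). Sinusoidal endothelial ones went from 674.7 to 262.4 (3 of 5, 2 over 2 SE and none assured). T and NK cell ones went from 77.17 to 23.09 (4 of 5, 1 over 2 SE) and neutrophil ones from 456.3 to 206.6 (2 of 3, none over 2 SE or assured). In bulk RNA, fewer cells of a type and less RNA per cell cannot be told apart. *Xist* went from 143 to 40.2, and the sex of the animals and the time point cannot be told apart for genes that differ by sex.

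Oxidative stress is met by a system that most cells share. The transcription factor NRF2 raises enzymes that make and recycle glutathione and thioredoxin, others that break down heme and store iron, and the pentose phosphate enzymes that supply NADPH for the reduction. In liver, macrophages that clear red cells and dying cells are among the heaviest users of the heme branch.

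In the thioredoxin and glutathione list, 13 of 15 genes had a ratio above 0, 5 were at least 2-fold higher (3 assured) and none was 2-fold lower, with a median log2 ratio of 0.67 against -0.02 over all genes compared. The 5 are set against a background of 7.52%. *Txnrd1*, the cytosolic thioredoxin reductase (chr10:82833951-82897712), had means of 31.2 at day 0 and 213 at BDL day 3. No BDL day 3 library can have been under 143 and no day 0 library over 93.6, so the groups did not overlap, and the log2 ratio was 2.77 ± 0.20 (SE, n = 3 per group). *Gsr*, the glutathione reductase, had means of 64.5 and 228 (1.82 ± 0.16). *Srxn1*, which repairs over-oxidized peroxiredoxins, had means of 13.9 and 44.3 (1.67 ± 0.55). The reductases and the repair enzyme thus led the list, ahead of the peroxidases *Prdx1* (526 and 1130) and *Gpx1* (1140 and 2340). The glutathione-making enzymes were higher by less, with log2 ratios of 1.00 for *Gclm*, 0.75 for *Gclc* and 0.52 for *Gss*. The cystine importer *Slc7a11* was near the limit of measurement, with means of 1.9 and 1.42 and an SE of 1.55.

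In the list of NRF2-regulated detoxification and iron storage genes, 7 of 15 were at least 2-fold higher (5 assured), 1 was lower and the median log2 ratio was 0.71. *Hmox1*, which opens the heme ring and frees its iron, had means of 606 and 3140 (log2 ratio 2.37 ± 0.38). No BDL day 3 library was under 840, while a day 0 library could have reached 1818, so single libraries could overlap. The ferritin chains that store iron were among the most abundant messages of the table, with means of 2290 and 5570 for *Fth1* and of 6730 and 15000 for *Ftl1*. *Ephx1*, microsomal epoxide hydrolase, had means of 101 and 347, and *Htatip2* 18.2 and 64.8, and for both the libraries of the groups could not overlap. *Sqstm1*, a selective autophagy receptor, had means of 155 and 382. The regulator itself was level, with means of 104 and 106 for *Nfe2l2* (NRF2) and 28.9 and 39.4 for its inhibitor *Keap1*. *Nqo1*, a widely used NRF2 target, stood apart with means of 3.54 and 1.23 (log2 ratio -1.52 ± 0.93), which lies within 2 SE of no change.

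In the pentose phosphate and NADPH list, 4 of 9 genes (44.4%) were at least 2-fold higher, against a background of 7.52%. The 2 lower ones (22.2%) were near the background of 20.8%. *Pgd* (109 and 345), *Tkt* (160 and 413), *Taldo1* (355 and 762) and *G6pdx* (94.3 and 189) were higher. Of these, 3 were assured, and *G6pdx* lay within 2 SE of no change (1.00 ± 0.56). *Rpe* (13.9 and 6.57) and *Me1*, a malic enzyme that also makes NADPH (16.2 and 4.69), were lower, and only *Me1* was assured. In heme handling, 4 of 14 genes were higher (28.6%, 2 assured) and 4 lower (28.6%, 4 assured). *Slc48a1*, which carries heme out of the phagosome, had means of 87.2 and 287, and *Slc40a1*, the iron exporter ferroportin, 711 and 1500. The lower ones were the transferrin receptors *Tfrc* (22.7 and 8.22) and *Tfr2* (6.22 and 1.91), the plasma ferroxidase *Cp* (111 and 30.1) and *Slc25a37* (35.7 and 8.15), a mitochondrial iron importer of red cell precursors. Erythroid markers were lower in the same samples, as given above, and their part in these values was not tested.

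The lysosome takes up and digests what phagocytes eat. Proton pumps (V-ATPase) acidify it, hydrolases break down sugars, lipids and proteins, and the MiT transcription factors (TFEB, TFE3 and MITF) are known to drive many of these genes through an E-box of the CLEAR type in their promoters. To show what such a site looks like in the genes that follow, stretches of RefSeq promoters (GRCm38.p6) are printed on the strand of the gene, 5′ to 3′, with each match to TCACGTG on either strand in capitals. The search covered the 250 bases before the listed start, and the motif contains the shorter E-box CACGTG.

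Gla, chrX:134601178-134601248, minus strand: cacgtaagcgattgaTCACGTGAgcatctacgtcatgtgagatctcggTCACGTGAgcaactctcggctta
Ctsd, chr7:142387904-142387941, minus strand: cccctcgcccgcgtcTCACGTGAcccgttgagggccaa
Lamp1, chr8:13159084-13159160, plus strand: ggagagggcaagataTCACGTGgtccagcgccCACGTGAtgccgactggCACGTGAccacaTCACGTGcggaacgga
Mcoln1, chr8:3500432-3500495, plus strand: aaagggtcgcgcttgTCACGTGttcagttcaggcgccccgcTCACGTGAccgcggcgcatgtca

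Of the lysosomal genes with a promoter sequence, outside the autophagy list, 12 of 60 (20%) held this motif, against 485 of 9782 (4.96%) of all genes compared with a promoter sequence. Among the lysosomal genes that were at least 2-fold higher it was 6 of 22. The antioxidant response element core (TGAC, then any 3 bases, then GC), through which NRF2 acts, was searched in the same windows. It lay in 5 of 34 redox promoters (14.7%), near the 12% of all genes compared, and in 12 of 60 lysosomal ones (20%). A match describes letters in a window, not binding.

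Lysosomal hydrolases were higher as a group. In the list of glycosidases and sulfatases, 8 of 22 genes were at least 2-fold higher (3 assured), none was 2-fold lower and the median log2 ratio was 0.90, or 0.39 without each gene's highest library. *Gla*, alpha-galactosidase A, had means of 8.9 and 47.8 (2.42 ± 0.22), and *Gusb*, beta-glucuronidase, 55.2 and 213 (1.95 ± 0.09, an SE within the range that rounding alone can give). *Sgsh*, *Fuca1*, *Man2b1* and *Naglu* followed with log2 ratios of 1.18, 1.11, 1.07 and 1.03. The sulfatases *Arsa*, *Arsb* and *Ids* were level or slightly lower, at -0.05, -0.32 and -0.08, so enzymes of the same pathway differed in the comparison.

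Of the genes for lysosomal lipid hydrolysis and export, 6 of 11 were higher (2 assured), with a median of 1.00, or 0.41 without each gene's highest library. *Lipa*, which splits cholesteryl esters and triglycerides in the lysosome, had means of 166 and 554 (1.74 ± 0.19). Its BDL day 3 libraries were at least 504 and its day 0 libraries at most 498, so the groups were apart. *Asah1*, acid ceramidase, had means of 121 and 305, *Psap*, the saposin precursor, 1300 and 2980, and *Npc1*, which moves cholesterol out of the lysosome, 38.9 and 93.3.

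Among the proteases, 6 of 13 were higher (4 assured) and 2 lower. *Ctsd* had means of 1170 and 4180 (1.84 ± 0.22), *Lgmn*, legumain, 1470 and 4000 (1.44 ± 0.13) and *Ctsb* 3350 and 8410 (1.33 ± 0.15). These are broadly expressed lysosomal proteases. *Ctse*, which is found in few cell types, went the other way, from 4.86 to 0.424, with no overlap of libraries. All 17 V-ATPase subunits had a ratio above 0, with a median of 0.86. Of these, 5 passed 2-fold and 0 remained past it without the highest library, so no single subunit was assured although all pointed the same way. *Atp6v0d2*, a subunit known from osteoclasts and lipid-laden macrophages, had means of 1.53, 8.78 and 26.8 at day 0, BDL day 3 and BDL day 14.

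Lysosomal membrane genes were higher for 5 of 14 (2 assured), among them *Creg1*, a secreted and lysosomal glycoprotein (264 and 960), *Lamp1* (640 and 1410) and *Tmem192* (10.3 and 32.5). The MiT factors were near level, with log2 ratios of 0.51 for *Tfe3*, 0.24 for *Mitf* and 0.12 for *Tfeb*. Autophagy genes were not part of the pattern: 1 of 17 was 2-fold higher (*Atg7*, 16.6 and 41) and the median was 0.07.

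**Figure D2:**
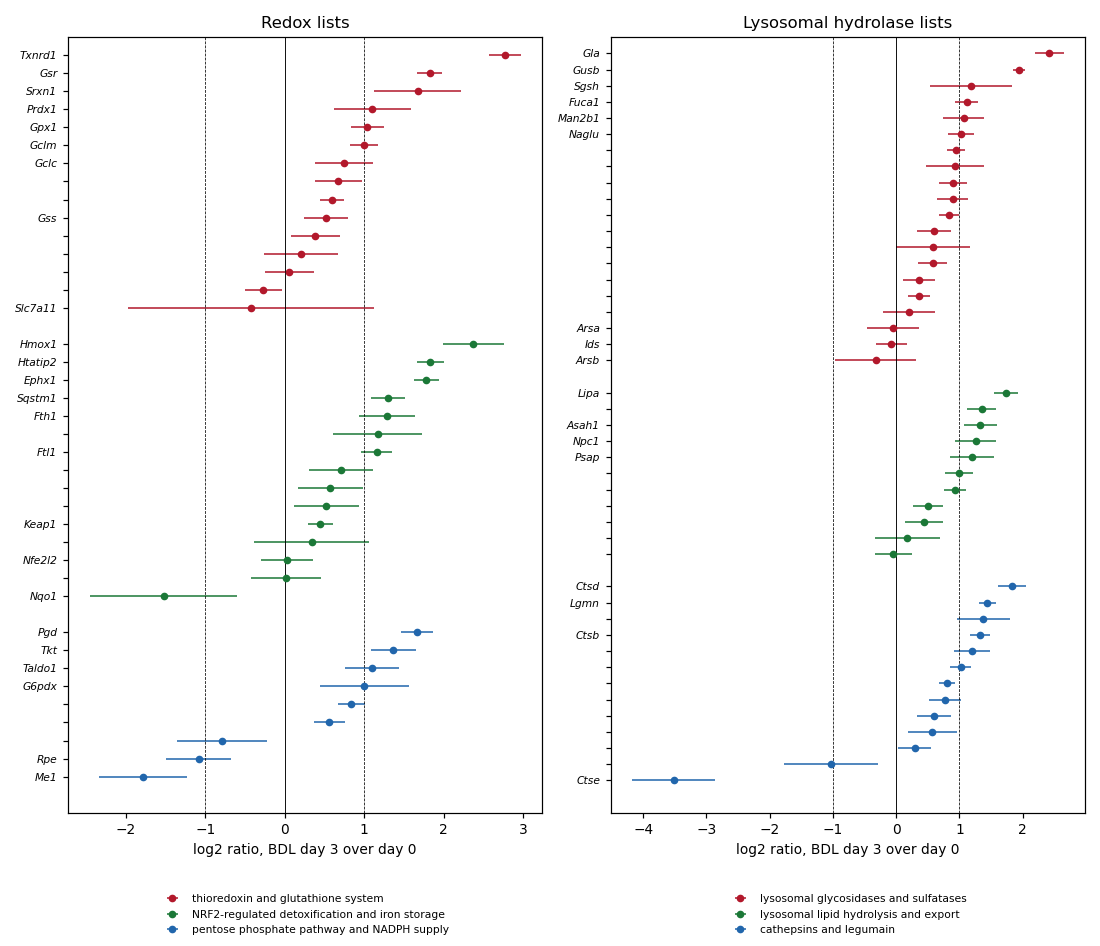
Log2 ratio of BDL day 3 over day 0 for members of 3 redox lists (left) and 3 lysosomal hydrolase lists (right), colored by list, with names for the genes described in the text, with bars of 1 SE either side and dashed lines at 2-fold. *Txnrd1* at 2.77 and *Gla* at 2.42 lead, most members lie to the right of 0, and *Nqo1*, *Me1* and *Ctse* lie far to the left.

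Phagocytes that digest fat-rich debris export cholesterol, esterify it and desaturate fatty acids under the LXR receptors. All 12 genes of this list had a ratio above 0, 6 were at least 2-fold higher (3 assured) and the median log2 ratio was 1.02, the highest of the 62 lists. *Nceh1*, which hydrolyses stored cholesteryl ester, had means of 21.8 and 121, with BDL day 3 libraries of at least 85 and day 0 libraries of at most 65.4 (2.47 ± 0.15). *Scd1* and *Scd2*, stearoyl-CoA desaturases, had means of 47.5 and 183 and of 22.4 and 94.7. At BDL day 14 *Scd1* was at 28.8 and *Scd2* at 83.6. *Apoe* had means of 7330 and 15300, and the exporters *Abca1* and *Abcg1* log2 ratios of 1.25 and 0.98. Cholesterol synthesis was not higher with it: 2 of 21 genes passed 2-fold upward and 3 downward, and the median was 0.11.

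In the list of lipid-handling phagocyte genes, 6 of 12 were at least 2-fold higher, 2 were lower and the median was 0.97. The median of the worst-case limits without each gene's highest library was 0.30. *Lgals3*, galectin-3, had means of 356 and 1550 (2.12 ± 0.22) and was assured. *Trem2*, a lipid-sensing receptor, had means of 42.5, 291 and 613 over the 3 time points and *Gpnmb* 13.2, 164 and 1130, and neither was assured. The highest *Gpnmb* library, at 2000, was above the 492 that a BDL day 3 library can have reached. It came from BDL day 14, so the limit says nothing on the BDL day 3 libraries of *Gpnmb*. *Spp1*, osteopontin, which is also one of the cholangiocyte markers (459 and 175), and *Fabp4* (80.7 and 17.4) were lower. Of 12 apoptotic cell receptors and bridging molecules, 3 were higher (25%, 1 assured) and 3 lower (25%, 2 assured). The backgrounds were 7.52% and 20.8%. Higher were, among others, *Axl* (339 and 796, assured) and the Kupffer cell receptor *Timd4* (268 and 579, within 2 SE and not assured). The bridging molecules *Gas6* (176 and 51.9) and *Mfge8* (56 and 14.3), which link dying cells to such receptors, were lower. *Marco*, a scavenger receptor of Kupffer cells (a member of the marker list), had means of 694, 3920 and 183. Summed Kupffer cell, macrophage and monocyte markers were higher in the same samples, and their part in the lysosomal, redox and lipid values was not tested. The monocyte markers were divided, 3 with a ratio above 0 and 2 below. Among them *Chil3* had means of 14.7 and 90.4, and *Ly6c2* of 21.9 and 8.19.

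Among the glycolysis genes, *Pkm*, which makes pyruvate, had means of 287 and 932 (1.70 ± 0.32), and *Ldha*, lactate dehydrogenase A, 209 and 459, while the hexokinases *Hk1* and *Hk3* and the transporter *Slc2a1* had log2 ratios of 0.02, 0.00 and 0.04. In all, 2 of 18 genes passed 2-fold and the median was 0.68, or 0.08 without each gene's highest library. Tricarboxylic acid cycle genes (median 0.46) and nuclear genes of the respiratory chain (0.42, with 22 of 24 above 0) stood a little above the median of 0.18 for genes with a mean of at least 10, with no member at 2-fold. The 13 respiratory genes encoded in mitochondrial DNA went the other way. All were lower, 6 by at least 2-fold and 0 assured, with a median of -0.85, and *mt-Co1* had means of 79600, 44200 and 18700 at day 0, BDL day 3 and BDL day 14. The difference between the nuclear and the mitochondrial list was not tested. The mitochondrial genes are among the most abundant of the table, and 32.3% of the total of all group means at day 0 came from just 10 genes, against 20.0% at BDL day 3.

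Protein turnover and synthesis genes differed by small amounts. Of 26 proteasome genes, 25 had a ratio above 0, none passed 2-fold and the median was 0.54, with *Psmb5* at 0.84. Ribosome biogenesis had a median of 0.52 with 3 of 18 at 2-fold, among them *Pes1* (49.9 and 106). Aminoacyl-tRNA synthetases and the chaperones of the endoplasmic reticulum had medians of 0.35 and 0.30 with no member at 2-fold in either direction. Cytosolic heat shock genes were lower, 5 of 13 by at least 2-fold (3 assured), with means of 324 and 94.2 for *Hspa1a* and 274 and 67.4 for *Hspa1b*. Immediate-early genes, which respond within minutes to stimuli, cell dissociation included, had no ratio above 0 in any of 17 genes and 5 were at least 2-fold lower (2 assured). *Fosb* had means of 88.1 and 9.86, *Atf3* 174 and 42.8 and *Egr1* 35.5 and 11.5. *Dusp1* (426 and 410) and *Klf6* (107 and 106) were level.

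**Figure D3:**
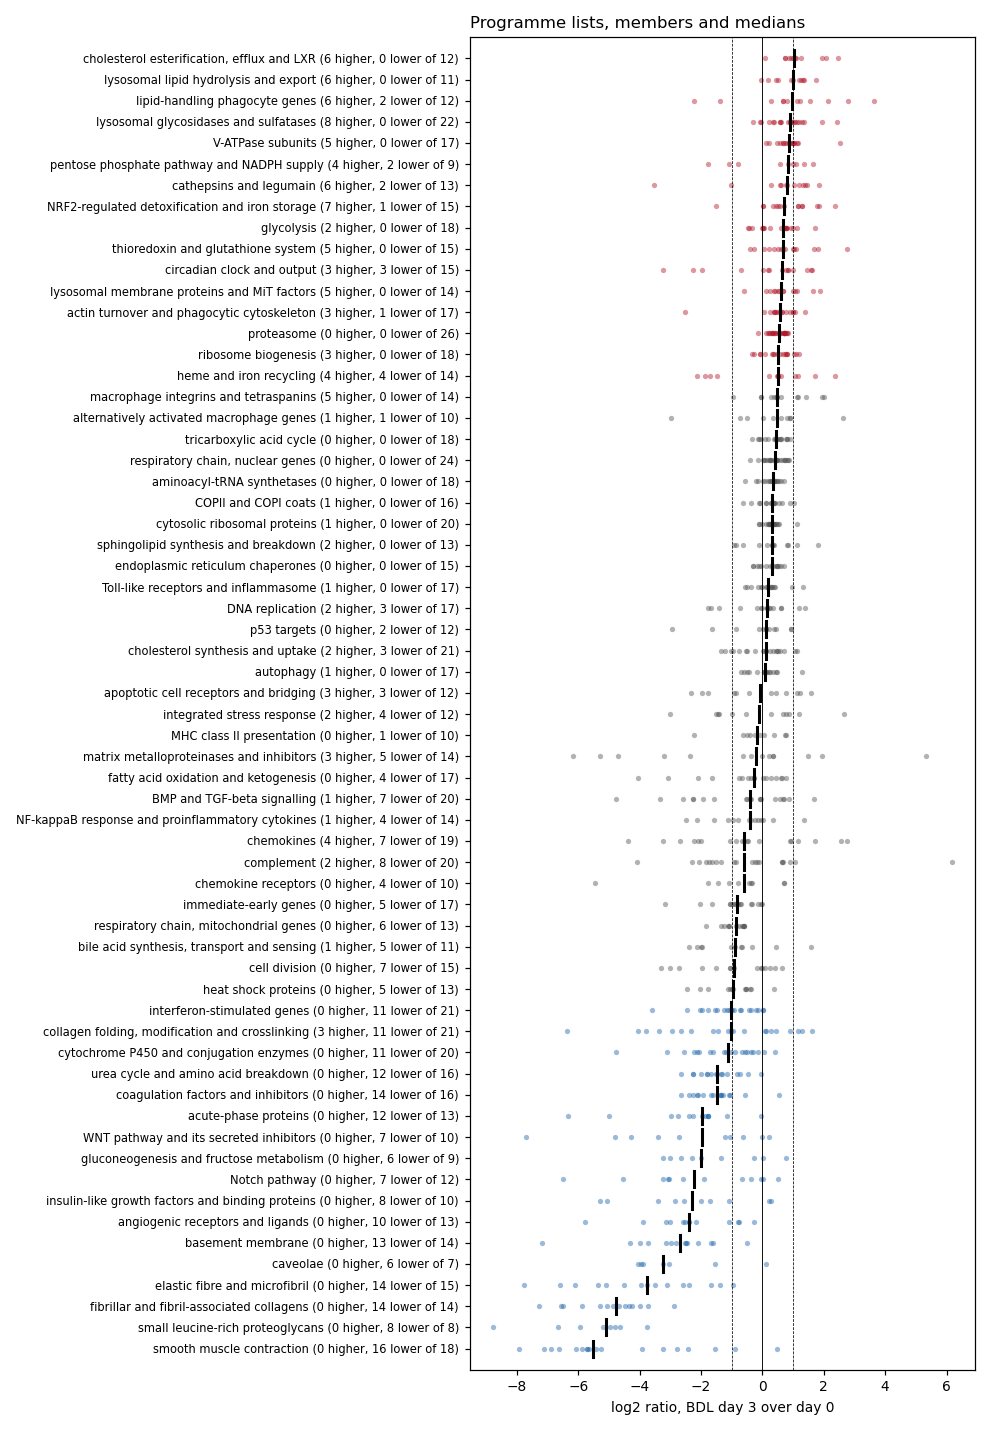
Each row is 1 of the 62 lists, ordered by its median log2 ratio of BDL day 3 over day 0 (black bar), with a point per gene and, in the row name, how many genes were at least 2-fold higher and lower. Red lists have a median of at least 0.5 (16 lists) and blue lists a median of -1 or less (17 lists), and the blue ones reach far lower than the red ones reach high.

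The extracellular matrix lists were among the lowest. Fibrillar collagens give tissue its tensile strength, basement membrane proteins line vessels and ducts, and small leucine-rich proteoglycans space the collagen fibrils. All 14 fibrillar and fibril-associated collagens were at least 2-fold lower at BDL day 3 (13 assured), against a background of 20.8%, with a median log2 ratio of -4.78. *Col3a1* (chr1:45311538-45349706) had means of 422 and 4.47. Its day 0 libraries were at least 166 and its BDL day 3 libraries at most 13.4, so the groups were far apart (94.4-fold lower). *Col1a2* had means of 255 and 2.85 and *Col5a2* of 26.7 and 0.683, also with no overlap. All 8 small leucine-rich proteoglycans were lower and assured, with a median of -5.08, or -4.89 when means at the floor of the table are raised to it. *Lum*, lumican (chr10:97565128-97572703), went from 32.1 to the floor, at least 110-fold lower, and *Dcn*, decorin, from 177 to 6.35.

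Elastic fibre genes were lower for 14 of 15 (12 assured, median -3.76, or -2.80 without each gene's highest library), with *Eln*, elastin, at 63.1 and 1.84 and *Mfap4* at least 145-fold lower. *Dpt*, dermatopontin, which binds decorin, went from 82.5 to the floor, at least 283-fold lower, and all of its day 0 libraries held at least 75.7. Basement membrane genes were lower for 13 of 14 (11 assured, median -2.67, or -1.98 without each gene's highest library). *Col4a1* had means of 121, 15.3 and 95 and *Sparc* 386, 55 and 271 at day 0, BDL day 3 and BDL day 14, both closer to day 0 at BDL day 14 than *Col3a1*, which was then at 32.3.

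The enzymes that modify collagen did not move as 1 block. The collagen-specific chaperone *Serpinh1* (117 and 7.09), the procollagen processing enhancer *Pcolce* (27.4 and 2) and the crosslinking oxidase *Loxl1* (18.9 to the floor) were lower, along with 8 others of 21. *Colgalt1*, a collagen galactosyltransferase (111 and 340), and *Plod1*, a lysyl hydroxylase (151 and 372), were at least 2-fold higher and assured. The list median of -1.03 became 0.37 when members with a mean under 10 were left out, so its sign depends on the weakly expressed members. Among the matrix metalloproteinases, *Mmp12*, macrophage elastase (chr9:7344381-7369499), had the largest ratio of all genes with a mean of at least 10 whose libraries could not overlap. Its means were 6.62 and 264, with 336 in the highest library, at least 120 in the lowest BDL day 3 library and at most 19.9 in any day 0 library (5.32 ± 1.06). *Mmp19* was also higher (12.3 and 34.1). *Mmp2* (26.5 and 0.676), *Mmp3* (5.25 to the floor) and the inhibitors *Timp3* (90.7 and 9.86) and *Timp1* (6.4 and 1.26) were lower.

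Contractile genes followed the matrix. Smooth muscle contraction uses myosin light and heavy chains, a kinase that activates them and thin filament proteins, and a CArG box in their promoters is known to bind serum response factor. The box of *Myl9* is shown as it lay within the 250 bases before its start, in capitals. It was found in 2 of 15 promoters of the list and in 116 of 9782 of all genes compared.

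Myl9, chr2:156775288-156775327, plus strand: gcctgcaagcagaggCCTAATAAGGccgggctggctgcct

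Of the 18 genes, 16 were at least 2-fold lower and all 16 were assured, with a median log2 ratio of -5.52, or -4.88 with means at the floor raised to it. *Myl9* had means of 94.2 and 1.79, *Mylk*, the myosin light chain kinase, 47.1 and 0.394, *Tagln* 142 and 3.35 and *Tpm2* 60.8 and 1.58. For these 4 the day 0 libraries were at least 20.6, 7.5, 58 and 40.6 and the BDL day 3 libraries at most 5.37, 1.18, 10.1 and 4.74, so no overlap was possible. *Tpm4* (107 and 57.7) and *Flna* (251 and 349), which non-muscle cells share, did not pass 2-fold. Caveolar genes were lower for 6 of 7, with *Cavin1* at 63 and 4.24. By contrast, genes of actin turnover in phagocytes were above 0 in 16 of 17, with *Capg* (98 and 257) and *Cfl1*, cofilin (746 and 1550), among 3 at 2-fold, and *Gsn*, gelsolin (237 and 41.7), as the exception. None of the 3 was assured, and the median of 0.58 was 0.30 without each gene's highest library. The mesenchymal markers share *Col1a1* and *Col3a1* with the collagens and *Acta2* and *Des* with the contractile genes. Their summed level was 843.7 and 12.93, as given above, and their part in these lists was not tested.

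Among the other genes whose libraries could not overlap were *Dnajb13* (6.12 and 26.7) and *Ano6*, a lipid scramblase of the plasma membrane (44.4 and 165), on the higher side. On the lower side were the matrix proteins *Sparcl1* (64 and 0.651) and *Fbln1*, fibulin-1 (30.1 and 0.442).

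**Figure D4:**
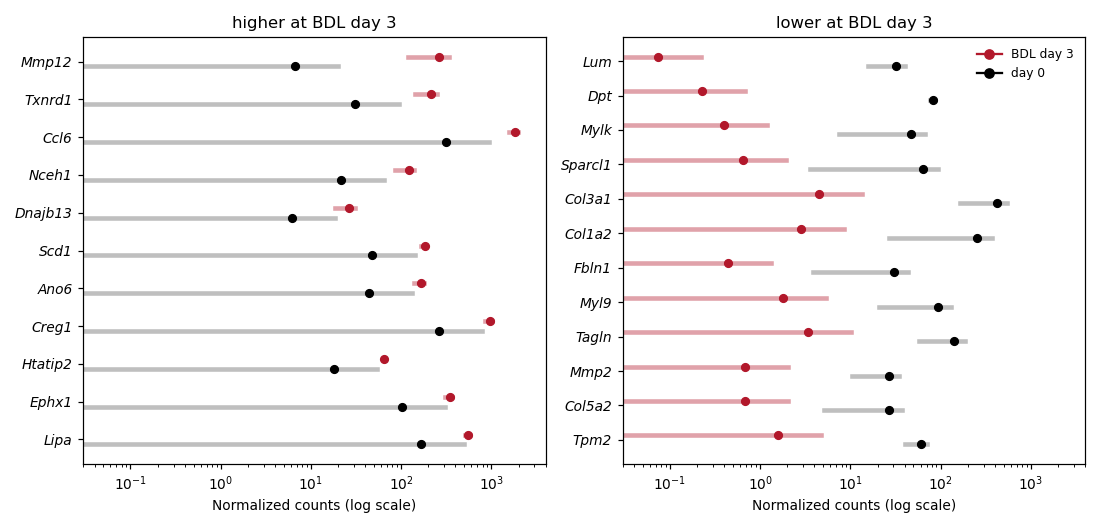
Means at day 0 (black) and BDL day 3 (red) in normalized counts (log axis) of the 11 higher and 12 lower genes with the largest ratios among those with a mean of at least 10 whose libraries cannot overlap. Bars span the values that single libraries can have had, given the mean and the highest library, and reach the left edge where a library can have been at 0. *Mmp12* leads on the left with 264 against 6.62, and *Lum* on the right with 0.0729 against 32.1.

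Signalling lists were described by pathway. Of all genes compared, 7.52% were at least 2-fold higher and 20.8% lower, and 36.4% were lower among those with a mean from 1 to 10. The WNT list had 7 of 10 genes at least 2-fold lower (5 assured, 3 over 2 SE). *Rspo3*, a WNT amplifier made by endothelial and stellate cells, had means of 13.1 and 0.47, and the inhibitor *Sfrp1* was at least 63.4-fold lower from 18.5. In the list of insulin-like growth factors, a receptor and binding proteins, 8 of 10 genes were lower (6 assured, 5 over 2 SE). *Igfbp3* had means of 20.9 and 0.534 and *Igfbp7* of 240 and 33.6, while *Igf1* was level (252 and 303). Angiogenic receptors and ligands were lower for 10 of 13 (6 assured), with a median of -2.40, or -0.97 without each gene's highest library. The receptors *Kdr* (101, 22.5 and 133 at day 0, BDL day 3 and BDL day 14), *Tek* (40.9, 7.79 and 53.6) and *Flt4* (61, 10.7 and 66.4) were low at BDL day 3 alone, *Kdr* and *Flt4* without being assured, and the list median at BDL day 14 was 0.14. The Notch list was lower for 7 of 12, all assured, with a median of -2.24 that stood at -0.60 by BDL day 14, and *Dll4*, a ligand of vessel tips, had means of 16.7, 1.96 and 12.1. Sinusoidal endothelial markers, given above, were lower at BDL day 3 in the same samples, and their part in these lists was not tested. In BMP and TGF-beta signalling, 7 of 20 (35%) were lower, 4 of them over 2 SE, and 1 (5%) was higher, which is under the background. *Bmp4* was at least 18.2-fold lower, and *Tgfbi* had means of 105, 337 and 1170.

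Chemokines were divided. *Ccl6* (chr11:83587882-83593087), a CC chemokine of myeloid cells, had means of 314 and 1840, with BDL day 3 libraries of at least 1560 and day 0 libraries of at most 942 (2.55 ± 0.43). *Ccl9*, its neighbour in the same gene family, had means of 48.5 and 330 (2.77 ± 0.59). Family members are similar in sequence, and reads that fit more than 1 of them may be divided among them. The CXC chemokines *Cxcl12* (57.8 and 2.75), *Cxcl1* (18.7 and 1.96), *Cxcl10* (23.9 and 3.72), *Cxcl9* (51.3 and 12.1) and *Cxcl2* (136 and 34) were at least 4-fold lower. In all, 4 of 19 chemokines were higher (1 assured) and 7 lower (5 assured). Of 14 genes of the NF-kappaB response and proinflammatory cytokines, 1 was higher, which is near the background of 7.52%, and 4 were lower (3 assured). *Il1b* had means of 296 and 153, *Tnf* of 15.7 and 9.11 and *Il10* 43.3 and 9.93, while the interleukin-1 antagonist *Il1rn* had means of 20 and 50.7. Of 17 Toll-like receptor and inflammasome genes, only *Tlr13* (50.8 and 128) passed 2-fold.

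Interferon-stimulated genes are induced through a response element in their promoters. The matches to this element, spelled GAAA, then any 2 bases, then GAAA, and searched on either strand, are shown in capitals for a pair of genes that were lower at BDL day 3. In *Isg15* neighbouring matches overlap.

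Isg15, chr4:156200860-156200911, minus strand: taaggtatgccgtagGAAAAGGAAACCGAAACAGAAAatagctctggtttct
Ifit1, chr19:34640770-34640828, plus strand: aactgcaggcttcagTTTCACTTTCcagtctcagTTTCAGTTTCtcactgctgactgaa

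The element lay in 9 of 17 promoters of this list (52.9%) and in 2.95% of all promoters searched. Of the 21 genes, 11 were at least 2-fold lower at BDL day 3 (10 assured) and none higher, with a median log2 ratio of -1.02 that went to -1.51 at BDL day 14. *Isg15*, a ubiquitin-like modifier, had means of 73 and 13.4, with day 0 libraries of at least 46.2 and BDL day 3 libraries of at most 40.2. *Ifi44* (18.4 and 1.51) did not overlap either, and *Rsad2* (53.3 and 13.7) and *Oas2* (87.7 and 21.3) were assured. *Irf7*, the factor that amplifies the response, was level at BDL day 3 (473 and 475) and stood at 64.7 at BDL day 14. Genes of MHC class II presentation were near level, with 1 of 10 lower and *Cd74* at 975 and 731.

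Several hepatocyte programmes, which carry the synthetic and metabolic work of the liver, were lower as well. Among 16 genes of the urea cycle and amino acid breakdown, 12 were lower (10 assured) with a median of -1.49, led by *Gls2* (15.5 and 2.46) and *Otc* (13.1 and 2.71). Of 16 coagulation genes, 14 were lower but only 6 were assured, the median of -1.49 was -0.81 without each gene's highest library, and *Fgg*, fibrinogen gamma, had means of 106 and 20.1. Acute-phase proteins were lower for 12 of 13 with 4 assured, and the median of -1.97 was -0.29 without each gene's highest library. *Saa2* (257 and 3.16) and *Saa1* (185 and 5.74), the serum amyloids, had SEs of 2.41 and 1.81, while *Saa3*, which macrophages also make, had means of 87.8 and 18.4. Gluconeogenesis genes were lower for 6 of 9, all assured, with *Fbp1* at 60.2 and 7.39. Genes of fatty acid oxidation and ketogenesis had a median log2 ratio of -0.29, and the medians of their group means were 45.7 and 35.6. At least 2-fold lower were 20.8% of all genes compared and 8.8% of those with a mean of at least 10. Of the 17 genes of this list, 4 (23.5%) were lower, all assured. *Bdh1*, a ketone body dehydrogenase (17.7 and 1.07), was one of them, and *Hadhb* (39.2 and 61.6) and *Cpt1a* (51.3 and 77.2), of fatty acid oxidation, were not. Of 20 cytochrome P450 and conjugation genes, 11 were lower (8 assured, 5 over 2 SE) with a median of -1.12. Many of these genes are weakly expressed, and 36.4% of all genes with a mean from 1 to 10 were lower. In bile acid handling, also at low means, 5 of 11 were lower (2 over 2 SE) and the median was -0.91, but it was 0.62 with a mean of at least 10. The exporter *Abcb11* (4.85 and 1.22), the receptor *Nr1h4* (6.68 and 1.7) and the uptake transporter *Slco1b2* (7.38 and 1.41) were lower, and *Abcc3*, which returns conjugates to blood, was higher (125 and 375, assured). Of 20 complement genes, 8 (40%) were lower (5 assured) and 2 (10%) higher (1 assured), the latter near the background of 7.52%. *C3* (587 and 174) and *Mbl2* (8.2 and 1.95) were lower, and the macrophage-made *C1qb* (3030 and 6320) was higher. Hepatocyte markers had summed levels of 3125 and 896.9 in the same samples, and their part in these lists was not tested.

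Of the clock genes, *Nr1d1* (33.1 and 6.84), *Dbp* (16.9 and 4.33) and *Hlf* (4.13 and 0.437) were lower and assured, and *Per2* (1.21 and 3.71) and *Cry1* (2.98 and 8.17) were higher but within 2 SE. The hour of collection is not given in the sources used here. Cell division genes were lower for 7 of 15 (4 assured) at low levels, where 36.4% of all genes with a mean under 10 were lower, with *Top2a* at 7.34 and 1.12 and *Mki67* at 12.3 and 5.9, and the list median of -0.93 was 0.17 under quantile normalization. DNA replication genes had a median of 0.14, with *Tk1* at 29.4 and 76.1. Of 12 genes of the integrated stress response, *Ddit4*, which restrains mTORC1, had the highest ratio, with means of 32 and 204 and an SE of 0.99 on a log2 ratio of 2.67, and *Atf4* was level (90.8 and 111).

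The course after BDL day 3 differed among the programmes. Of the 704 genes that were higher by over 2 SE, 363 (51.6%) were also at least 2-fold above day 0 at BDL day 14, and 126 were at least 2-fold below their BDL day 3 mean. Of the 1699 lower genes, 1045 (61.5%) were also at least 2-fold below day 0 at BDL day 14, and 823 were at least 2-fold above their BDL day 3 mean. Both comparisons use the same day 0 libraries, so these shares are a description and no support for either. *Txnrd1* was at 63, *Hmox1* at 840 and *Creg1* at 331 at BDL day 14, all closer to day 0 than to BDL day 3. *Ctsd* (4650), *Gusb* (214) and *Nceh1* (115) were near their BDL day 3 means.

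**Figure D5:**
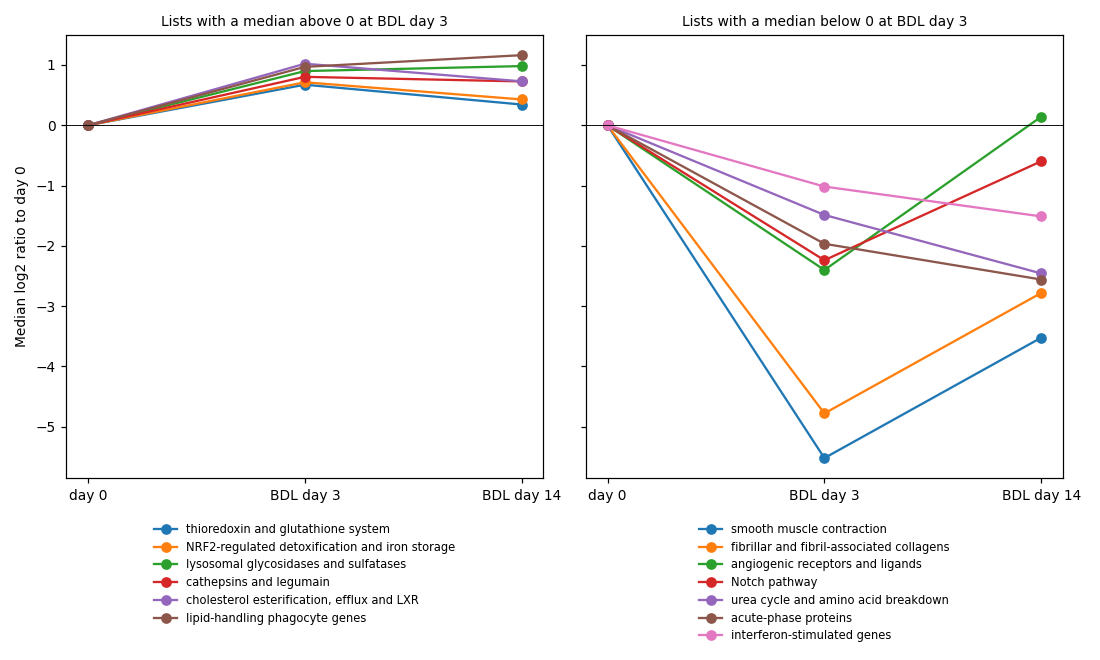
Median log2 ratio to day 0 of 6 lists with a median above 0 at BDL day 3 (left) and 7 lists with a median below 0 (right), at day 0, BDL day 3 and BDL day 14. On the right the angiogenic list goes from -2.40 (-0.97 without each gene's highest library) to 0.14, while the urea cycle, acute-phase and interferon lists are lower at BDL day 14 than at BDL day 3.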

How the data were processed

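mRNA libraries of FACS-sorted GFP(+) liver cells were prepared with a TruSeq kit and sequenced on a NextSeq. The authors trimmed the reads, aligned them with STAR (version 2.6.1d per the labels) to mm10, counted them on GENCODE M18 genes in Partek Flow and scaled the counts to the upper quartile. Their deposited table holds signal values, namely the mean of each group, and, in the same unit, the arithmetic mean, geometric mean, total and highest value over 10 libraries (3, 3 and 4). The labels describe 12 libraries, 6 of them of BDL day 14. The authors' own p-values, FDR, ratios, fold changes and 95% limits were not used. There were 0 columns of values per library.

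The log2 ratio was computed from the BDL day 3 and day 0 means for genes with a mean of at least 1 (Python 3.11.15, numpy 2.4.6, pandas 2.3.3). A gene passed at 2-fold. A group mean of up to 4 times the lowest of its group (0.512 at day 0, 0.292 at BDL day 3) was read as the floor, and folds against it are bounds. This multiple was chosen here and is not stated in the sources used. The SE, the ratio without the highest library and the limits on single libraries were chosen after the table was seen, and the steps were tested on simulated data. Members and lists were chosen with earlier results of these data known. Named genes are list members, first those with the largest ratios in the direction in which more members passed 2-fold, and the 12 highest and 12 lowest ratios among genes with a mean of at least 10 whose libraries cannot overlap (11 existed upward). *Lgr5*, *Sfrp4*, *Timp4* and *Omd* were not matched, and *Pip4p1* was matched by a synonym. Promoters came from RefSeq and were found for 9782 of 12889 symbols. Some members counted in the lists are not reported here by name.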

Additional observations from a re-analysis of the deposited data

How the results depend on the processing

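Counts of genes at least 2-fold higher and lower were 969 and 2682. They were 1652 and 4453 with no filter on the mean, 574 and 642 with a mean of at least 10, and 113 and 1322 at 4-fold. At 1.5-fold 2482 genes were higher, and under quantile normalization 1589 were. Leaving out each gene's highest library gave 428 and 1655, and the limit of 2 SE, added after the data were seen, left 1699 of the lower genes. Each of these differs from the reported count by over 1.5 times, which for the filter and the fold follows from their construction. Leaving out the highest library and the limit of 2 SE can by construction only lower a count. For quantile normalization the cause was not tested. A pseudocount of 1 and median-ratio scaling (a shift of all genes by -0.0205 on the log2 scale) kept both counts within 1.5 times. The median log2 ratio of the collagen modification list turned from -1.03 to 0.37 with a mean of at least 10. Among the other lists, 3 changed sign with a mean of at least 10 and 3 under quantile normalization, all with medians under 1 in size. Of the 62 list medians, 15 moved by over 1.5-fold without each gene's highest library (the largest shift was 1.67 on the log2 scale), and 6 did with a pseudocount of 1 (1.92), 6 under quantile normalization (1.1) and 6, beside the reversed one, with a mean of at least 10 (1.87). For 9 of the 23 genes chosen for separated libraries, all of them lower genes, the pseudocount moved the ratio by more than its spread, and all 23 kept their sign. No paired analysis was possible because the labels give the libraries no shared replicate numbers and the table holds group means. Depth per library is unknown, so counting error could not be separated from other spread, and means under 3 had a median SE of 1.12.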
